A study of Saccharomyces cerevisiae with 70 samples.

Results

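The mRNAs of 55 ribosome biogenesis factors of budding yeast (Saccharomyces cerevisiae) were followed through 4 oxidant time courses. The set was chosen by name, with earlier results of these data known. Its members were found by gene symbol in the annotation of the array probes. All 55 were on every array design, out of 5553 genes named on the arrays of peroxide I and menadione I and 5577 on those of the second series. The expression values are deposited log ratios, taken here as log2 and centred on each array, so that 0 is the typical gene of an array and a change of -1 is a halving.

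Each array compared the Cy5-labelled total RNA of a culture from an oxidant course with a common reference, made from an asynchronous culture and labelled with Cy3. Peroxide I was a course of alpha factor synchronised cells with 0.24 mM hydrogen peroxide, on 23 arrays at 21 times from 0 to 275 min after release. Menadione I was a course with 2 mM menadione, a quinone that generates superoxide by redox cycling, on 14 arrays from 0 to 210 min. Its labels give the density of the culture and do not state a synchronisation. Peroxide II (hydrogen peroxide, 17 arrays from 0 to 180 min) and menadione II (menadione, 16 arrays from 0 to 140 min) used synchronous cells of strain DBY8724 released from G1 arrest, and their labels give no dose. The labels used here give no time of oxidant addition and no untreated course, and the strain of the first series is not named in them. Progress after release and the response to the oxidant therefore cannot be told apart. Each course is 1 culture and its times take the place of replicates, so p-values measure only the spread between times within a window.

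Ribosomes are assembled in the nucleolus. RNA polymerase I makes a long precursor RNA, small nucleolar RNPs guide its chemical modification, and the small subunit processome folds and cleaves the part that becomes the 40S subunit. Other factors, among them many RNA helicases and GTPases, build the 60S subunit, which export factors then carry to the cytoplasm. In yeast the genes for these factors are known to be regulated together with growth, and they are known for falling in many stresses. The 55 members were grouped by their known role. Proteins of box C/D snoRNPs, most of which direct 2′-O-methylation, gave 4 members, among them RRP9 of the U3 snoRNP. H/ACA snoRNP proteins, which direct pseudouridylation, gave 3. The small subunit processome and 40S assembly class held 17, early and middle 60S assembly 25, and late 60S maturation and export 6.

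Times were divided into a first window (0 to 21 min), an early window (22 to 50 min), a middle window (51 to 90 min) and a late window (after 90 min). The windows held 3, 3, 5 and 10 times in peroxide I, 4, 4, 4 and 5 in peroxide II, 3, 2, 4 and 5 in menadione I and 4 in each window of menadione II. The deposited tables do not state the direction of the ratio, and Cy5 over Cy3 was taken from the labels. Genes of the mating pheromone response, which alpha factor induces, averaged 0.78 at 0 min of peroxide I, 1.49 in peroxide II, 1.21 in menadione I and 1.51 in menadione II over 29 genes. Over genes, an array of 63 min and a repeat array of 20 min in peroxide I correlated at -0.303, the lowest value of any pair. The 2 arrays labelled 20 min in that course correlated at 0.127 across 5532 genes and had member medians of -0.13 and 0.05. Their mean is 1 of the 3 first-window points of that course, and whether 1 of them carries a wrong time label was not tested. The 2 at 63 min correlated at 0.407 across 5458 genes and had member medians of -0.98 and -0.43. Each pair was averaged.

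The biogenesis factors stayed near their starting level for about the first 30 min of every course and then fell within a few sampling times. In peroxide I their median log2 ratio was 0.21, 0.10 and -0.05 at 0, 14 and 20 min and -0.02 at 30 min. It then passed -0.46 at 40 min and -1.41 at 49 min and was lowest at 55 min, at -1.78, where 45 of 55 members lay below -1. In peroxide II it lay between -0.34 and -0.13 in the first window and at -0.19 at 28 min. It then went from -0.83 at 35 min to -1.94 at 42 min and -2.05 at 49 min, with its lowest value of -2.22 at 56 min. The 42 min array gave a value for 44 of the members.

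In the menadione courses the members' medians fell over the same span. In menadione I the median was -0.03 at 30 min, -0.74 at 40 min and -1.23 at 55 min, and was lowest at 70 min, at -1.63. In menadione II it was -0.12 at 28 min, -0.62 at 35 min, -1.17 at 42 min and -1.48 at 49 min, with its lowest value of -1.68 at 56 min. The medians at 28 or 30 min were the highest of their whole course in both menadione courses. In the late window the array medians lay between -0.70 and -0.08 in peroxide I and between -0.85 and -0.59 in peroxide II. They lay between -1.36 and -0.55 in menadione I and between -1.5 and -1.26 in menadione II. The late medians of menadione II thus overlapped its middle ones, which ran from -1.68 to -1.29. Those of both peroxide courses lay above all medians of their middle windows, with the 63 min pair of peroxide I averaged to -0.78. The repeat array of that pair alone, at -0.43, lay within the range of the late medians. The first-window medians of menadione II, from -0.56 to -0.37, were already below those of peroxide II. These 2 courses were scanned on different days, and scan day and agent cannot be told apart for a level.

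**Figure D1:**
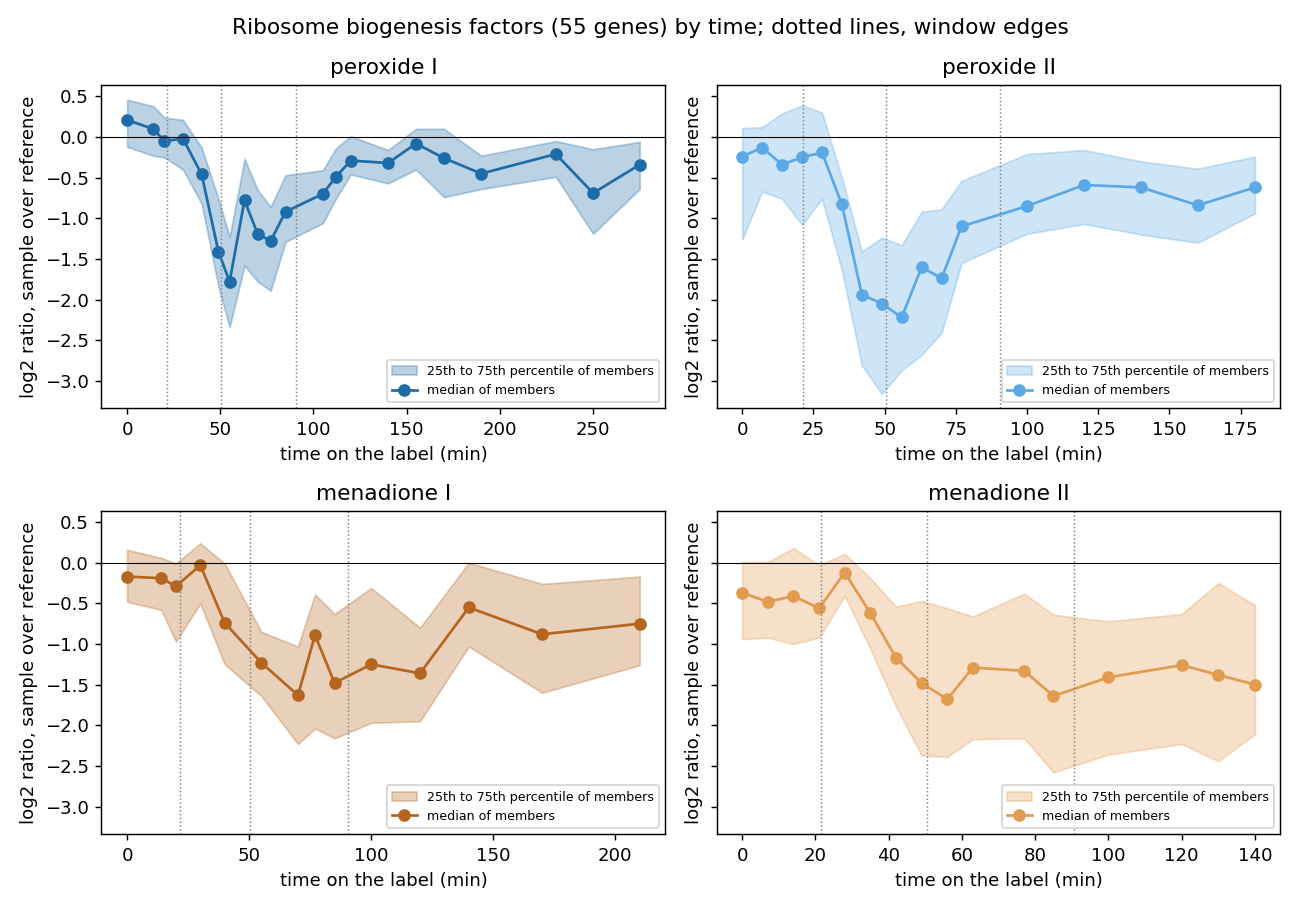
Median (points) and 25th to 75th percentile (band) of the log2 ratio over the 55 ribosome biogenesis factors at each time in minutes, 1 panel per course, with window edges as dotted lines. The median was lowest at 55, 56, 70 and 56 min in peroxide I, peroxide II, menadione I and menadione II, and in menadione II it was still at -1.5 at 140 min.

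In peroxide I, 32 of the 55 members fell between the first and the middle window and 1 rose, by limma with Benjamini-Hochberg adjustment over all genes tested. Among all genes 8.72% were lower and 6.54% higher. The median change of the members was -1.10, against 0.03 for all genes. It was negative for 53 of 55 members and for 2635 of 5551 genes tested. Leaving out 1 time in turn gave 24 to 34 members lower. With repeat arrays averaged, the value at every middle time lay below that at every first-window time for 37 members. This held for 11.3% of all genes. In bulk RNA, fewer cells holding a transcript and less of it per cell cannot be told apart.

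All 3 H/ACA proteins fell in peroxide I. The core protein NHP2 fell by 2.34 ± 0.56 (SE, adjusted p = 0.00562 by limma). The structural protein GAR1 fell by 2.18 ± 0.47 and CBF5, the pseudouridine synthase, fell by 1.91 ± 0.38. Of the box C/D proteins, the methyltransferase NOP1 (fibrillarin) fell by 2.35 ± 0.43 and its partner NOP58 fell by 2.30 ± 0.50. RRP9, a protein of the U3 snoRNP, had a change of -0.63 ± 0.30 and did not pass (adjusted p = 0.168). The calls of these 5 genes held without any 1 time.

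NSR1 (YGR159C), the yeast nucleolin needed for processing of the precursor RNA and for 40S assembly, changed most in peroxide I. Its log2 ratio in peroxide I was 0.63, 0.32 and 0.06 at 0, 14 and 20 min, then -0.78 at 30 min, -2.95 at 40 min and -3.79 at 49 min. In the middle window it was -4.51, -2.67, -3.32, -2.92 and -2.21, and in the late window the lowest, median and highest values were -1.67, -0.80 and -0.05. All middle values were below all first and all late values. From first to middle it fell by 3.46 ± 0.52 (adjusted p = 0.000142 by limma). Of the 17 members of its class 7 fell, with a median change of -0.83. They included the helicase DBP8, at -2.51 ± 0.51, and IMP3, a U3 snoRNP protein that helps U3 pair with the precursor RNA, at -1.20 ± 0.34. The value of DBP8 rests in part on 2.96 at 0 min, without which the change was -1.51. The call of IMP3 was lost without 14, 20 or 55 min, with values of -1.16, -1.21 and -1.02. UTP4, a subunit of the t-UTP complex, had a change of 0.04 ± 0.23.

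Of the 25 early and middle 60S factors 15 fell in peroxide I, with a median change of -1.21. DBP2 (YNL112W), a helicase known both in ribosome biogenesis and in mRNA decay, stood at -0.08, -0.69 and 0.22 in the first window and at -2.50, -2.43, -3.05, -3.39 and -2.60 in the middle window. The windows did not overlap, and DBP2 fell by 2.61 ± 0.39 (adjusted p = 0.000142 by limma). BRX1, which acts early in 60S assembly, fell by 2.48 ± 0.33 with the lowest adjusted p of all members, 6.73e-05 by limma. NOP7, a scaffold of the complex that it forms with Erb1 and Ytm1, fell by 2.44 ± 0.40. MAK16 was at -2.30 ± 0.48 and the helicase DBP10 at -2.15 ± 0.31, both called. MRT4, which holds the place of the stalk protein P0 on the assembling subunit, fell by 1.87 ± 0.38, and NOP15 and RRP14 fell as well, at -1.70 ± 0.42 and -1.56 ± 0.38. SSF1 had a change of -1.10 ± 0.50 and did not pass. SSF1 has a near-identical copy, SSF2, whose mRNA the probes may also bind. Of the 6 late 60S factors 5 fell, among them the export adaptor NMD3, at -1.96 ± 0.41, and the GTPase NOG2, at -1.55 ± 0.26. RLP24, which recruits the ATPase Drg1 to the 60S particle, was at -0.82 ± 0.38 and did not pass.

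**Figure D2:**
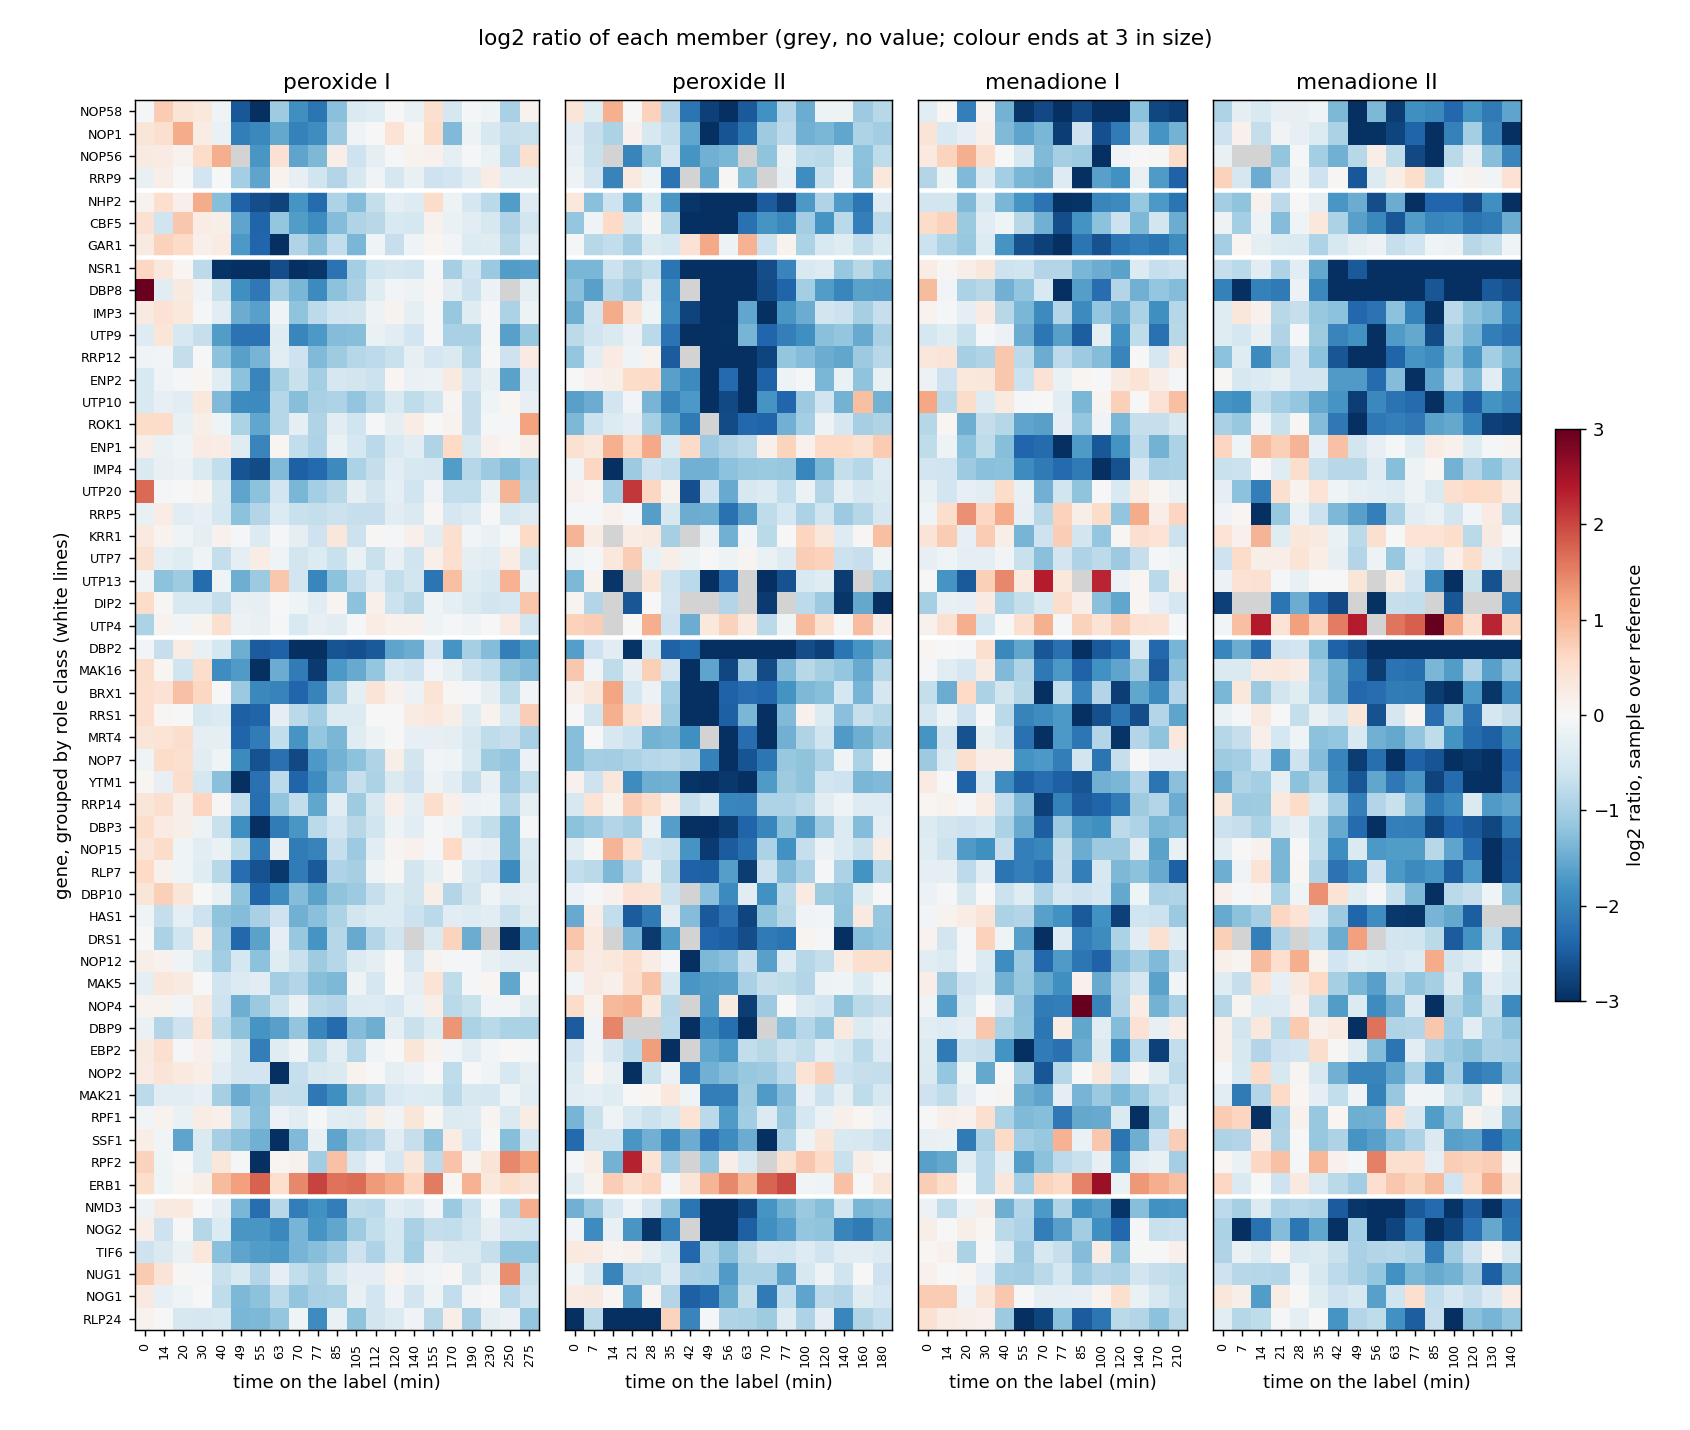
Log2 ratio of each of the 55 members (rows, grouped by role class from box C/D snoRNP at the top to late 60S maturation at the bottom) at each time in minutes (columns) of the 4 courses, with grey for no value. The lowest ratios of most rows lie in the block of columns from about 42 to 85 min, and the row of ERB1 is above 0 there in both peroxide courses.

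Before the middle window only NSR1 had fallen in peroxide I by limma's adjusted test. In the early window it fell by 2.84 ± 0.58 (adjusted p = 0.0219 by limma). Among all genes 0.27% were lower and 0.505% higher in that comparison. At an unadjusted p under 0.05, 21 of 55 members passed, against 14.6% of all genes, and the members' median change was -0.65. The 30 min array, at the starting level, shares this window with 49 min, near the lowest level. Without it 13 members fell, and without 0, 14, 40 or 49 min none did. The change of NSR1 was then -2.70, -2.85, -2.62 and -2.20 and its call was lost. No member passed either with the first array of each repeat alone, with other window edges or with only the arrays of these windows, and 3 did with array quality weights. All-gene calls in either direction were then 29, 3, 6 and 238, against 15 lower and 28 higher as fitted.

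Recovery in peroxide I was tested as the late against the middle window. Of the 55 members 27 rose and none fell, where 7.91% of all genes rose and 6.11% fell. The members' median change was 0.79, against 0.02 for all genes. Without the 55 min array, the lowest of the course, 16 rose, with arrays scaled to 1 spread 10 rose and with a late window ending at 160 min 13 rose. The scaled and the shortened fit called 349 and 424 of all genes in either direction, against 339 lower and 439 higher as fitted. All 3 H/ACA proteins, 2 of 4 box C/D proteins, 3 of 17 small subunit factors, 16 of 25 early and middle 60S factors and 3 of 6 late factors rose. The rise was 2.25 ± 0.39 for NSR1, 1.81 ± 0.25 for BRX1, 1.73 ± 0.38 for NOP58, 1.58 ± 0.30 for NOP7 and 1.45 ± 0.32 for NOP1, with adjusted p from 5.91e-05 to 0.00342 by limma. NMD3 rose by 1.42 ± 0.31. These calls held without any 1 time. DBP2 rose by 1.1 ± 0.29, and its late values still ran from -2.63 to -0.57. Its call was lost without 77 min, at 0.98. The call was also lost with arrays scaled to 1 spread, with other window edges and with the late window ending at 160 min. Over all alternatives the rise of DBP2 ran from 0.46 to 1.27. With repeat arrays averaged, every late time lay above every middle time for 8 members (3.01% of all genes). For 8 members every late time still lay below every first-window time (0.738% of all genes).

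In peroxide II, 54 members could be tested. DIP2, a processome component, had too few values in the second series. Between the first and the middle window 20 fell and 2 rose, where 5.04% of all genes fell and 8.99% rose. The median change was -1.33, against 0.05 for all genes. The change was negative for 48 of 54 members and for 2637 of 5519 genes tested. Leaving out 14, 21, 56 or 63 min gave 12, 13, 9 and 13 lower, and the range over all single times was 9 to 21. The arrays of 14, 21 and 28 min were scanned on a day apart from the other 14. With scan day as a covariate 3 members fell and the median change was -0.97, and without those 3 arrays 9 fell. With other window edges 33 fell. Over all genes these settings, in this order, called 202, 365 and 1180 in either direction, against 278 lower and 496 higher as fitted. For 26 members every middle array lay below every first-window array (10.3% of all genes).

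DBP2 stood at -1.66, -0.63, -0.31 and -2.95 in the first window of peroxide II and at -4.58, -5.50, -4.58 and -3.68 in the middle window. The windows did not overlap, DBP2 fell by 3.20 ± 0.59 (adjusted p = 0.000533 by limma), and the fall was called under all alternatives, scan day included. MRT4 (YKL009W) was at -1.27, 0.01, -0.47 and -0.64 in the first window and at -7.47, -2.28, -5.19 and -1.45 in the middle window. It fell by 3.50 ± 0.69 (adjusted p = 0.00124 by limma), the largest change of the members in this comparison, and its 4 middle values were spread over a wide range. It was not called when only the arrays of these windows were fitted. NSR1 began at -1.38, -1.36, -0.64 and -0.91, reached -5.47 and -6.34 at 42 and 49 min and stood at -4.64, -4.60, -2.67 and -1.98 in the middle window. It fell by 2.40 ± 0.75, a call lost without 14, 21, 56 or 63 min at -2.26, -2.34, -2.01 and -2.02. The change of NSR1 was -1.39 with scan day as a covariate and -2.1 without the second scan day. With the probe with most values it was -2.21, and none of these passed.

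In peroxide II the H/ACA protein NHP2 again fell by 2.30 ± 0.55 and CBF5 fell by 1.93 ± 0.55, while NOP58 fell by 2.34 ± 0.60. NOP1 was at -1.20 ± 0.53 and did not pass, and RRP9 was at 0.12 ± 0.62. Of 16 small subunit factors 6 fell, with a median change of -1.54, and IMP3 among them fell by 2.45 ± 0.57. Of the 25 early and middle 60S factors 10 fell, among them BRX1 at -2.51 ± 0.56, NOP15 at -2.18 ± 0.47, MAK16 at -1.89 ± 0.57, RRP14 at -1.63 ± 0.47 and NOP7 at -1.46 ± 0.48. NMD3 was the only late 60S factor that fell, at -1.54 ± 0.50. Without 56 min the calls of CBF5, MAK16, RRP14, NOP7 and NMD3 were lost, at -1.67, -1.64, -1.46, -0.89 and -1.18. Without 14 min those of CBF5, NOP7 and NMD3 were lost too, at -1.63, -1.45 and -1.45, and without 21 min those of RRP14, NOP7 and NMD3, at -1.44, -1.41 and -1.31. MAK16 also lost its call without 0 or 70 min, at -1.60 and -1.65, RRP14 and NMD3 without 63 min, at -1.45 and -1.40, and NOP7 without 0, 7, 63 or 70 min, at -1.57 to -1.44. Those of NHP2, NOP58, IMP3, BRX1 and NOP15 held without any 1 time. With scan day as a covariate all 5 were lost, at -1.99, -1.62, -1.43, -1.98 and -1.67. So were those of CBF5, MAK16, RRP14, NOP7 and NMD3, at -1.18, -1.6, -1.31, -1.33 and -0.93. Without the second scan day the calls of NOP58, IMP3 and NOP15 were lost, at -2.07, -1.57 and -1.72. CBF5, RRP14, NOP7 and NMD3 lost theirs there too, at -1.59, -1.39, -1.38 and -1.06.

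Already in the early window of peroxide II 7 members fell (1.18% of all genes were lower and 2.76% higher), with a median change of -0.95 over 54. They were NSR1, UTP9 of the t-UTP complex, NOP15, BRX1, RRS1 of the 5S RNP pathway, YTM1 and the anti-association factor TIF6. BRX1 fell by 2.27 ± 0.56, a call lost without 14, 42 or 49 min at -1.97, -1.87 and -1.75. NSR1, at -2.62, lost its call without 0, 7, 14, 21, 42 or 49 min, at -2.72 to -1.73, and NOP15, at -1.78, without 14, 21, 42 or 49 min, at -1.72 to -1.32. With other window edges these 2 changes were -0.40 and -0.94, and with scan day as a covariate -2.11 and -1.53, and none of these passed. Without 28 min 22 members fell, and without 42 or 49 min none did. Without 0, 14 or 21 min 4, 1 and 4 fell. With other window edges or only the arrays of these windows none fell, with scan day as a covariate 2 fell, and 11 fell both with array quality weights and without the second scan day. Of all genes 8, 16, 126, 355 and 328 passed in either direction there, against 65 lower and 152 higher as fitted.

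Recovery in peroxide II had a larger median than in peroxide I, 0.93, but fewer members passed. Of 54 members 5 rose and 1 fell late against middle, where 1.07% of all genes rose and 2.06% fell, and 26 members had an unadjusted p under 0.05, against 17.8% of all genes. The count that rose was 23 with other window edges, 21 with array quality weights, 13 with only the arrays of these windows and 10 without centring, and it was 2 with arrays scaled to 1 spread. Genes called in either direction among all genes then numbered 532, 707, 456, 214 and 142, against 114 lower and 59 higher as fitted. NSR1 rose by 2.66 ± 0.71 to late values of -0.46, -0.38, -1.14, -0.83 and -1.22, all above its 4 middle values. MRT4 rose by 2.93 ± 0.66, DBP2 by 2.41 ± 0.56, NOP7 by 1.89 ± 0.46 and SSF1 by 1.56 ± 0.41, with adjusted p from 0.0109 to 0.032 by limma. Without 56 min the rise of MRT4 was 1.80 and that of NOP7 1.33, and neither was called. DBP2 lost its call without 63 min, at 2.11, and with arrays scaled to 1 spread. Calls were also lost for MRT4 without 70 min, at 2.56, and for NOP7 without 63, 140 or 180 min, at 1.73 to 1.87. NSR1 and SSF1 each lost theirs without any of 7 single times, at 2.28 to 2.77 and 1.17 to 1.67. The count was 1 without 56 or 63 min, 3 without 100, 120, 160 or 180 min and 2 without 140 min. For 17 members every late array lay above every middle array, against 5.87% of all genes, and for 7 every late array lay below every first-window array (2.71%).

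In menadione I, 4 of 55 members fell between the first and the middle window and none rose, where 0.684% of all genes fell and 1.22% rose. The median change, -1.08 against 0.02 for all genes, was close in size to that of peroxide I. Of the 55 members 49 were negative (share of all genes not given here). An unadjusted p under 0.05 was reached by 28 members, against 14.8% of all genes. The 4 were RLP24, DBP2, RRP14 and GAR1. Without 0, 14 or 70 min 1 member was lower, and without 77 or 85 min 2 were. With array quality weights 15 were lower, and 2 were with other window edges or with arrays scaled to 1 spread. Calls in either direction over all genes were then 240, 58 and 68, against 38 lower and 68 higher as fitted. The labelled culture density was 0.32 to 0.40 OD in the first window, 0.63 to 0.74 in the middle and 0.74 to 1.1 in the late window. Density thus rose with the time of the fall, and its part in the result was not tested.

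RLP24 (YLR009W) in menadione I was at 0.45, 0.23 and 0.17 in the first window and at -3.22, -2.76, -1.26 and -2.49 in the middle window. It fell by 2.72 ± 0.49 (adjusted p = 0.00916 by limma), and this call held under every alternative. DBP2 was at 0.05, -0.01 and -0.05 in the first and at -1.55, -2.56, -2.23 and -3.44 in the middle window, with no overlap. It fell by 2.44 ± 0.60 (adjusted p = 0.0461 by limma). Without 0, 14, 20, 70, 77 or 85 min the change lay between -2.51 and -2.11 and its call was lost. RRP14 fell by 2.20 ± 0.46 and GAR1 fell by 1.75 ± 0.40, and their calls were lost without any 1 of the 3 first-window times, at -2.25 to -2.17 and -1.87 to -1.62, and without 70 min, at -1.98 and -1.70. RRP14 lost it without 85 min too, at -2.09, and GAR1 without 55 or 77 min, at -1.76 and -1.64. Members with falls of similar size that did not pass were NOP58 at -2.09 ± 0.57, CBF5 at -1.73 ± 0.50 and NHP2 at -1.65 ± 0.43, with adjusted p from 0.0574 to 0.0943 by limma. NSR1, the member that fell most in peroxide I, was at -1.08 ± 0.41 here, with all 4 middle values between -1.36 and -0.60. Its 4 probes on this array gave changes from -2.54 to -0.14. For 23 members every middle array lay below every first-window array (8.07% of all genes).

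Neither the early fall nor the recovery passed the test for any member in menadione I. The median changes were -0.20 early against first and 0.35 late against middle, with 1 and 4 of 55 members at an unadjusted p under 0.05, against 3.16% and 6.48% of all genes. By limma's adjusted test 0% of all genes passed in either comparison. For 16 members every late array lay below every first-window array, against 4.72% of all genes. For 1 member every late array lay above every middle array, against 1.03%. NOP58, for example, was at -3.30, -3.39, -1.24, -2.74 and -2.82 in the late window after -2.91, -2.70, -3.18 and -2.70 in the middle one.

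In menadione II, 8 of 54 members fell between the first and the middle window and none rose, where 2.87% of all genes fell and 2.17% rose. The median change was -0.96, against 0.00 for all genes, and 43 of 54 were negative (share of all genes not given here). The 8 were NSR1, DBP2, NOP1, MAK16, NMD3, IMP3, UTP9 and the helicase DBP3. Without 14 or 56 min 4 members fell, and without 0, 7, 21 or 85 min 5 did. Without centring 5 fell, and with arrays scaled to 1 spread 2 fell. In these settings 259 and 88 of all genes passed in either direction, against 159 lower and 120 higher as fitted. For 20 members every middle array lay below every first-window array (5.65% of all genes).

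NSR1 in menadione II was at -0.69, -0.81, -0.35 and -0.92 in the first window, at -4.24, -3.72, -3.22 and -4.43 in the middle window and at -3.29, -3.36, -3.56 and -3.32 in the late window. It fell by 3.21 ± 0.75 (adjusted p = 0.0102 by limma), and no late value came near a first-window value. DBP2 was at -1.96, -1.48, -2.29 and -0.63 in the first, at -5.52, -4.84, -3.54 and -4.12 in the middle and at -3.51, -4.74, -4.13 and -4.55 in the late window. It fell by 2.92 ± 0.59 (adjusted p = 0.00423 by limma). NOP1 was at -2.48 ± 0.53, MAK16 at -2.11 ± 0.57, NMD3 at -1.99 ± 0.50 and IMP3 at -1.92 ± 0.57, all called lower. The calls of NSR1, DBP2, NOP1 and NMD3 held without any 1 time, and those of DBP2 and NOP1 under every alternative. With arrays scaled to 1 spread the calls of NSR1 and NMD3 were lost. NSR1 also lost its call with the probe with most values. MAK16 lost its call without 14, 21, 56, 63 or 77 min, at -2.10 to -1.88, and IMP3 without 0, 7, 14, 56, 77 or 85 min, at -1.98 to -1.64.

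In menadione II no member passed limma's adjusted test early against first or late against middle, with 3 and 1 of 54 at an unadjusted p under 0.05, against 8.02% and 9.62% of all genes. By the adjusted test 0% of all genes passed early, and late 0.0361% were lower and 0% higher. The members' median late change was 0.09, with 22 of 54 negative (share of all genes not given here). For 27 members every late array lay below every first-window array (7.05% of all genes), and for 2 every late array lay above every middle array (3.66%). NMD3 illustrates the former, at -0.78, -1.0, -0.41 and -0.92 in the first window and at -2.95, -2.47, -3.83 and -2.26 in the late window.

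**Figure D3:**
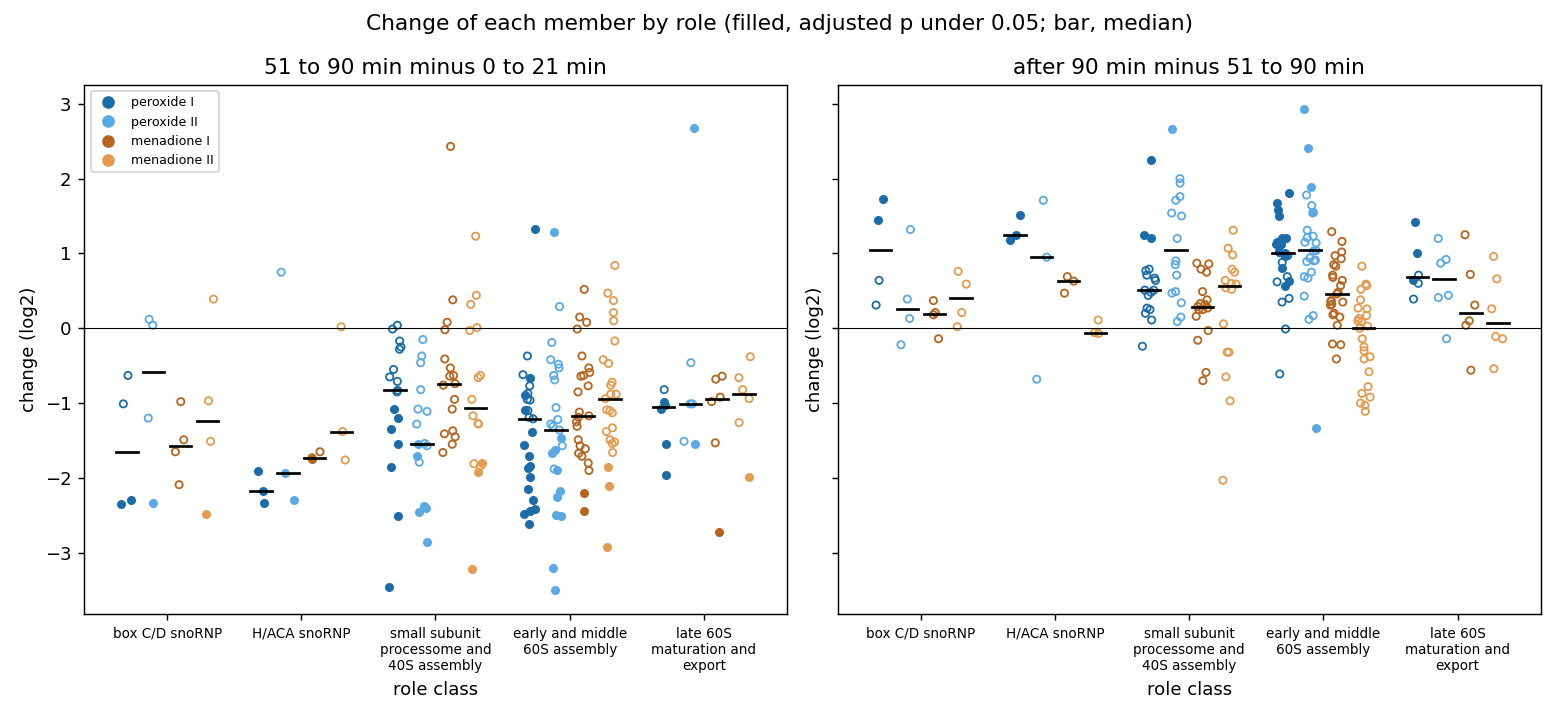
Change (log2) of each member by role class, from the first to the middle window on the left and from the middle to the late window on the right, coloured by course, with filled points past the adjusted threshold of 0.05 and bars at the median of a class. In the left panel every class has a negative median in every course, and in the right panel the filled points above 0 belong to the peroxide courses.

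Across the 4 courses, the 54 members with a value in each were negative from first to middle in all 4 for 36 members (66.7%), against 16.8% of the 5490 genes tested in all 4. DBP2 was called lower in all 4 courses, 6 of these members in 3, 12 in 2, 18 in 1 and 17 in none. A call in 2 or more courses was thus made for 35.2% of these members and 3.97% of all genes. These shares are a description, since the members were chosen with earlier results known. By role, the class medians in peroxide I, peroxide II, menadione I and menadione II were -1.66, -0.58, -1.57 and -1.24 for box C/D proteins and -2.18, -1.93, -1.73 and -1.38 for H/ACA proteins. They were -0.83, -1.54, -0.74 and -1.06 for small subunit factors and -1.21, -1.36, -1.17 and -0.94 for early and middle 60S factors. For late 60S factors they were -1.05, -1.01, -0.95 and -0.88. The classes were small and were not tested against each other.

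A few members departed from the common pattern. ERB1 (YMR049C), the partner of NOP7 in 60S assembly, was the only member called higher in 2 courses. In peroxide I it was at 0.52, -0.13 and 0.05 in the first window and at 1.76, 0.50, 1.45, 2.02 and 1.62 in the middle window, which overlap only at 63 min. The rise was 1.33 ± 0.37 (adjusted p = 0.0165 by limma), and its call was lost without 14 or 20 min, at 1.19 and 1.28. In peroxide II it went from -0.34, 0.11, 0.73 and 0.48 to 1.44, 0.99, 1.74 and 1.97, with no overlap. This rise was 1.29 ± 0.37 (adjusted p = 0.0186 by limma), lost without 0, 70 or 77 min at 1.09, 1.22 and 1.14. It then fell by 1.33 ± 0.35 in the late window, a call lost without any of 7 single times, at -1.36 to -1.18. In the menadione courses ERB1 changed by -0.01 ± 0.61 and 0.84 ± 0.37 from first to middle and did not pass. Its partners NOP7 and YTM1 were negative in all 4 courses, YTM1 at -1.84, -1.66, -1.71 and -1.13. Each array design carried 1 probe for ERB1.

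RLP24 rose in peroxide II by 2.67 ± 0.73 (adjusted p = 0.0133 by limma). Its values were -3.99, -0.81, -4.73 and -4.46 in the first window and -0.91, -0.95, -1.06 and -0.37 in the middle window. The first window was thus low and spread rather than the middle one high. The call was lost without 14 or 21 min, at 2.26 and 2.35. The change was 1.48 in a fit with scan day as a covariate, without the second scan day 1.58 and with array quality weights 1.73, and none of these passed. In the other courses the change of RLP24 was negative, at -0.82, -2.72 and -0.94 in peroxide I, menadione I and menadione II.

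GAR1 (YHR089C) fell in both courses of the first series, at -2.18 and -1.75, but was at 0.75 ± 0.36 in peroxide II and 0.02 ± 0.36 in menadione II. In menadione II all its values lay between -1.02 and 0.07. The second series used another array design with 1 probe for GAR1, so series, strain and probe cannot be told apart. UTP4 had changes of 0.04, -0.46, -0.02 and 1.23 in peroxide I, peroxide II, menadione I and menadione II, none past the threshold. Among members with several probes, all probes of a member had the same sign in 9 of 10 in each peroxide course, 20 of 25 in menadione I and 5 of 10 in menadione II.

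**Figure D4:**
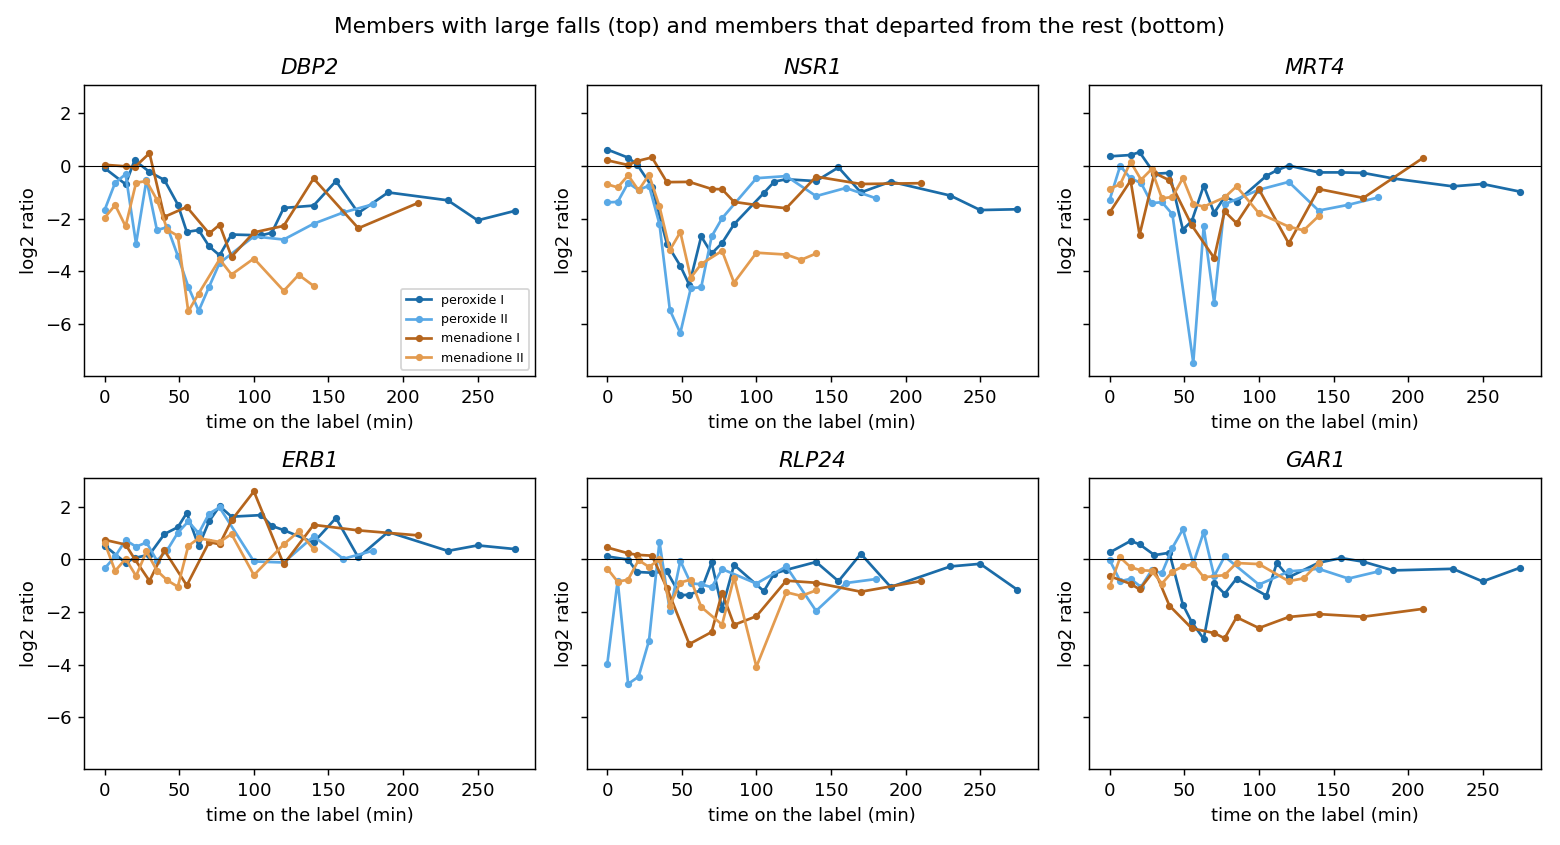
Log2 ratio by time in minutes of DBP2, NSR1 and MRT4 (top) and of ERB1, RLP24 and GAR1 (bottom), 1 line per course. NSR1 falls below -4 in peroxide I, peroxide II and menadione II, returns above -2 in both peroxide courses and stays below -3 in menadione II, while ERB1 is highest in the middle window of the peroxide courses.

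The agents were compared within the second series, as the change in peroxide II minus that in menadione II. Arrays of 14, 21 and 28 min of peroxide II were scanned apart from its others, and menadione II on a different day from both. Scan day thus changes within the first and early windows of peroxide II but not in menadione II. No member passed the adjusted test in any window as fitted. From first to early the median difference was -0.67, 44 of 54 members were more negative with peroxide and 8 had an unadjusted p under 0.05, against 10.7% of all genes (0% passed the adjusted test). From first to middle it was -0.28, with 5 members at an unadjusted p under 0.05, against 14.8% of all genes (0.0363% lower and 0.109% higher by the adjusted test). The middle difference became 0.06 with scan day as a covariate. Over all alternatives the early difference ran from -1.2 to -0.28. From middle to late the median difference was 0.91, 42 of 54 members were positive and 15 had an unadjusted p under 0.05, against 11.1% of all genes (0.163% lower and 0.144% higher by the adjusted test). The share of all genes with these signs is not given here. The times differ, since the middle window ended at 77 min in peroxide II and 85 min in menadione II. Their late windows ran from 100 min to 180 and to 140 min. With other window edges 8 members passed the adjusted test late and 1 in the middle comparison, and late 4 did without centring, 3 with array quality weights and 2 with only the arrays of these windows. Among all genes 147 and 140 passed with other window edges, and late 43, 115 and 57 in the other settings. As fitted, 9 genes were lower and 8 higher late, and 2 and 6 in the middle comparison. The largest late differences were 4.03 ± 1.29 for UTP13 and 3.80 ± 0.95 for MRT4, with adjusted p of 0.195 and 0.070 by limma. Both rest on spread values. UTP13 had 3 late values in menadione II, at -5.16, -0.66 and -2.61, and the middle values of MRT4 in peroxide II ran from -7.47 to -1.45. Without 77 or 63 min of peroxide II, 3 members and 1 member passed in the late comparison. Without 28 min of peroxide II 1 passed in the early one, and without 7 min of peroxide II 1 in the middle one. The recovery in peroxide II and its lack of a call in menadione II are therefore not shown to differ for any single member in the fit over all arrays.

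Of other small subunit biogenesis factors 22 of 55 fell from first to middle in peroxide I, 14 of 54 in peroxide II, 1 of 55 in menadione I and 7 of 54 in menadione II, with medians of -0.88, -1.02, -0.95 and -0.90. SNU13, a protein shared by box C/D snoRNPs and the spliceosome, was called lower at -2.99 ± 0.50 in peroxide I and -2.14 ± 0.52 in menadione II. Of other large subunit factors 23, 6, 4 and 10 of 54 fell, with medians of -0.92, -1.11, -0.78 and -0.78, and 1 rose in menadione II. NIP7, which binds the early 60S particle, was called lower at -2.65 ± 0.39 in peroxide I and -2.10 ± 0.62 in peroxide II, and NOC2 fell by 3.38 ± 0.75 in menadione II. RIX1, whose complex acts on the late nuclear 60S particle, fell by 2.11 ± 0.44 in menadione I. UTP9 and RIX1 are neighbours on chromosome VIII. There were 6 such pairs of a member and an adjacent gene of the biogenesis lists, and in those of RPF1 with GAR1 and of DBP8 with NMD3 both genes were members. Members lay on 14 chromosomes.

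Of RNA polymerase I subunits and factors 3 of 15, 3 of 14, 1 of 15 and 3 of 14 fell, with medians of -0.80, -0.35, -0.11 and -0.52, and RRN7 rose in peroxide II, by 1.94 ± 0.66. RPA34, a subunit particular to this polymerase, was called lower in all 4 courses, at -1.77 ± 0.43, -3.57 ± 0.76, -2.62 ± 0.49 and -2.67 ± 0.76. The RNA exosome, which trims and degrades precursor RNA, moved less, with 0, 1, 0 and 0 of 13 falling and medians of -0.52, -0.14, -0.38 and -0.34. RRP45 fell by 1.32 ± 0.34 in peroxide II.

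Among 11 regulators of ribosome synthesis genes medians were -0.11, -0.10, -0.31 and 0.21. TOD6, a repressor of ribosome biogenesis genes, was called lower at -2.44 ± 0.40 in peroxide I and -3.39 ± 0.55 in peroxide II. CRF1, a corepressor of ribosomal protein genes, rose by 1.14 ± 0.33 in menadione II. IFH1, an activator of ribosomal protein genes, fell by 2.04 ± 0.48 in peroxide II. TOD6 rose again late against middle, by 0.97 ± 0.30 in peroxide I and 2.30 ± 0.52 in peroxide II.

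The mRNAs of cytosolic ribosomal proteins, the building blocks of the finished subunits, fell from first to middle in 119 of 128 genes in peroxide I, 65 of 129 in peroxide II, 13 of 128 in menadione I and 33 of 129 in menadione II. Their medians were -2.09, -1.32, -1.11 and -0.95, against -1.10, -1.33, -1.08 and -0.96 for the biogenesis factors. In the early window of peroxide I the level of the biogenesis factors was lower, with a median of -0.68 against -0.34 for ribosomal proteins, and in peroxide II it was -1.30 against -0.72. In the first window these medians were 0.11 and 0.12 in peroxide I and -0.46 and -0.13 in peroxide II. Late against middle, 117 of 128 ribosomal protein genes rose in peroxide I and 22 of 129 in peroxide II, with medians of 1.53 and 1.06. None passed in either menadione course, with medians of 0.20 and -0.01. Many ribosomal protein genes are near-identical pairs, and the probes may not separate their mRNAs.

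**Figure D5:**
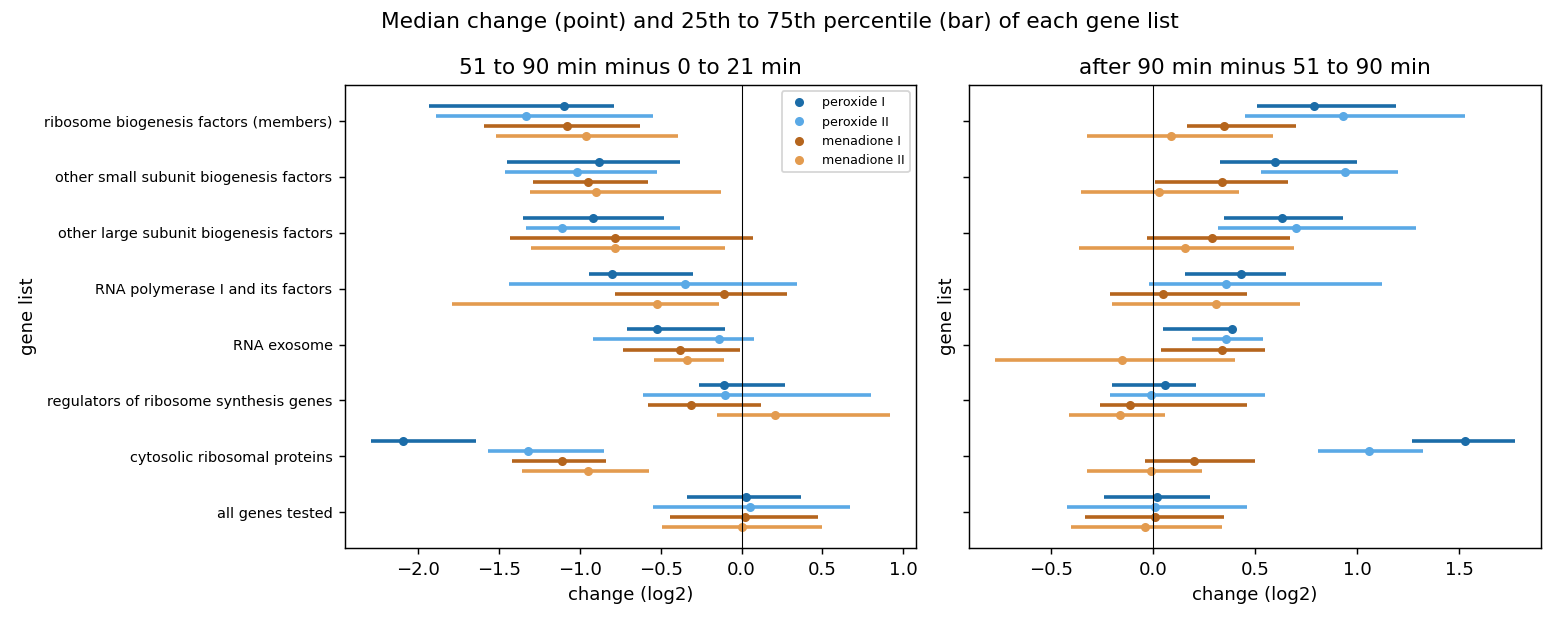
Median change (points) and 25th to 75th percentile (bars) in log2 of the biogenesis factors, of other lists of the pathway and of all genes tested, from first to middle window (left) and from middle to late window (right), coloured by course. The median of all genes lies near 0, the members' medians lie between -1.33 and -0.96 on the left, and on the right those of the menadione courses, 0.35 and 0.09, are below those of the peroxide courses, 0.79 and 0.93.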

How the data were processed

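The values are the log ratios the authors deposited in 3 array tables of 2-colour hybridisations, taken as log2. Per the labels, Cy5 was the sample and Cy3 the reference. The log base, the spot filter, the background correction, the normalisation and the software are not given in the sources used here. Tables held 13056 (menadione I), 9984 (peroxide I) and 14976 (second series) probes, of which 9565, 6625 and 6570 named 1 gene. Gene identifiers gave current symbols for 9555, 6620 and 6565 of them. All 55 members matched RefSeq, which was used for names and neighbours only. Each gene took the mean of its probes, arrays were centred on their median over genes (deposited medians ran from -0.549 to 0.29), and arrays of 1 time were averaged. An array lacked 1.2% to 26.9% of its values. For arrays, their number limits the precision.

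A linear model with 1 mean per course and window was fitted to all genes of a table in limma 3.58.1 under R 4.3.3, for genes with a value in 75% of arrays and in at least 2 arrays of each window compared. The 15 comparisons were early and middle against first and late against middle in each course, and the difference between agents in the second series. P-values were adjusted over all genes of a comparison (Benjamini-Hochberg) with a threshold of 0.05, and were not adjusted over the 15 comparisons. The residual spread is pooled over all windows of a table, which holds both courses for the second series. The fit was also run on simulated data whose arrays were independent of each other. Serial times of 1 culture are not, so that run cannot show whether the p-values hold for these courses. A count of windows that do not overlap used no test, and took repeat arrays of 1 time as their mean.

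The members and the lists were chosen with earlier results of these data known, so no list is independent support, and none was tested as a whole. Named members were, in each role class, the 2 lowest and the 1 highest by mean middle change, up to 5 with the lowest adjusted p per middle and late comparison, those that rose, and 6 named in an earlier account (BRX1, NSR1, DBP2, MRT4, NOP1, RLP24). UTP9, RRS1, YTM1, TIF6, DBP3, UTP13, RRN7 and CRF1, outside this rule, were named after their values were seen. In the other lists, examples of falls were picked from the 2 largest past the threshold in each course, and not all of these are named. Alternatives changed centring, scaling, filter, probe choice, window edges, array weights, repeats, scan day, the late window and the arrays in the fit, and left out each time in turn.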

Additional observations from a re-analysis of the deposited data

Results flagged for a closer look

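In 280 sets of values within a window of 4 to 10 times, 268 of a named member and 12 of the members' median, 8 had 1 value far from the others. Chance alone flags about 1 in 20 such sets, and times within a window are not exchangeable. In the late window of peroxide I both cases lay at 275 min, the last array: UTP4 was at -0.57 while the other 9 values ran from -0.12 to 0.25, and NMD3 was at 1.10 while the others ran from -1.12 to -0.05. NOP7 at 49 min of peroxide II was at -2.03, and the other early values ran from -0.92 to -0.80.

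The other 5 were in menadione II. In its first window DBP8 was at -3.39 at 7 min (others -2.11 to -2.02). DBP10 was at -0.95 at 21 min (others -0.03 to 0.16). SSF1 was at 0.22 at 14 min (others -0.93 to -0.89). NOP15 was at -0.84 at 85 min, above its other middle values of -1.73 to -1.67. RLP24 was at -4.08 at 100 min, below its other late values of -1.39 to -1.18.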

How the results depend on the processing

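No paired analysis was possible because each course is 1 culture and the labels give no replicate numbers. Counts of members that passed moved as follows, with the reported count after the word for. Calls over all genes moved as well under the settings other than single times. Fitting only the arrays of the windows compared gave 0 for 1 (early, peroxide I), 0 for 7 (early, peroxide II), 13 for 5 (late, peroxide II) and 2 for 0 (late, agents). Other window edges (early to 41 min, middle 42 to 80 min) gave 0 for 1 and 0 for 7 early in peroxide I and II, 33 for 20 and 23 for 5 in the middle and late comparisons of peroxide II, 2 for 4 (middle, menadione I), 1 for 0 (late, menadione II) and 1 and 8 for 0 (middle and late, agents). Array quality weights gave 3 for 1 and 11 for 7 early in peroxide I and II, 21 for 5 (late, peroxide II), 15 for 4 (middle, menadione I) and 3 for 0 (late, agents). Scaling to 1 spread gave 10 for 27 and 2 for 5 late in peroxide I and II and 2 for 4 and 2 for 8 in the middle of menadione I and II. No centring gave 10 for 5 (late, peroxide II), 5 for 8 (middle, menadione II) and 4 for 0 (late, agents). A late window ending at 160 min gave 13 for 27 and 3 for 5 late in peroxide I and II. With first arrays of the repeats alone the early count of peroxide I was 0. In peroxide II scan day as a covariate gave 2 for 7 and 3 for 20 (early, middle), and without the second scan day the counts were 11, 9 and 8 for 7, 20 and 5 (early, middle, late). Leaving out 1 time gave, for peroxide I, 0 to 13 early, 24 to 34 middle and 16 to 30 late, for peroxide II 0 to 22, 9 to 21 and 1 to 7, for menadione I 1 to 4 and for menadione II 4 to 8 in the middle, and for the agents 0 to 1, 0 to 1 and 0 to 3. The cause of these moves was not tested. The other 96 settings outside the single times kept their counts within 1.5 times or had 0 for 0. The latter came from the early and late comparisons of the menadione courses and from the agents. They do not show that a count of calls was stable.

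The members' median change from first to middle stayed negative under all alternatives, from -1.26 to -0.97 in peroxide I, -1.54 to -0.97 in peroxide II, -1.22 to -0.89 in menadione I and -1.11 to -0.74 in menadione II. The late medians stayed positive in peroxide I (0.49 to 0.89), peroxide II (0.80 to 1.18) and menadione I (0.26 to 0.46) and changed sign in menadione II (-0.12 to 0.23). The early medians changed sign in both menadione courses, and the middle difference between agents ran from -0.69 to 0.06. Of 71 calls of named members 27 were kept under every alternative and none changed sign.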
